A study of Mus musculus with 12 samples.

Results

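The genes described here are 41 mouse genes of the extracellular matrix and of TGF-beta signalling. They were chosen by name, but with earlier results of these data known. Their shares, set beside those of all genes, are therefore descriptions. They are 41 of the 53647 genes in the count tables, and each symbol matched 1 Ensembl identifier. Messenger RNA was sequenced in 12 libraries, with 2 in each of 6 groups, numbered preparation 1 and preparation 2. The labels name a pair of wild-type mouse lines, DC2.4, which derives from dendritic cells, and 4T1, which derives from a mammary carcinoma. Both lines received mRNA for uniSTING, which the series title calls a mimic of the innate immune adaptor STING, or mRNA for the fluorescent protein EGFP, called Mock. DC2.4 cells were also incubated for 24 h with vesicles released by 4T1 cells that had been given uniSTING mRNA (EXOuniSTING) or Mock mRNA (EXOmock). The mRNA was delivered with a transfection reagent or in lipid nanoparticles, and the labels do not say which was used for a library, or for how long cells were treated. The labels do not say that the preparations were separate cultures. The p-values therefore reflect the spread between the sequenced libraries alone, and that spread may be technical.

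The extracellular matrix is the meshwork of proteins that cells secrete and adhere to. Epithelial cells rest on a basement membrane, a sheet of laminins, type IV collagen, nidogen, perlecan and agrin, while fibrillar collagens and fibronectin fill the tissue beneath it. TGF-beta ligands are secreted in a latent form that is tied to this matrix by latent TGF-beta binding proteins. Once released, the ligand assembles a complex of a type II and a type I receptor, which phosphorylates SMAD proteins, and many matrix genes are among its known targets. Matrix metalloproteases cleave these proteins and are held in check by the tissue inhibitors called TIMPs.

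Total counts were 14.059 M to 25.976 M per library. The markers of the libraries went against their labels in both lines given mRNA. The 20 epithelial markers summed to 6220 to 6440 CPM, counts scaled to the library total, in the 4 mRNA-treated libraries labelled DC2.4, against 172 to 174 CPM in those labelled 4T1 and 137 to 151 CPM in the vesicle-treated ones. The 25 leukocyte and myeloid markers summed to 169 to 228, 10800 to 11200 and 13200 to 16200 CPM in the same order. The myeloid factor gene Spi1 had 1 to 5 counts in the mRNA-treated libraries labelled DC2.4, and the epithelial adhesion gene Epcam had 0 to 5 counts in those labelled 4T1. Groups are therefore called by their labels only. The 12 fibroblast markers summed to 1.18 to 15.3 CPM over all libraries, so these markers were low in sum everywhere.

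The matrix genes were a feature of the mRNA-treated libraries labelled DC2.4. There, 34 of the 41 genes reached 5 CPM in both groups, against 10 of 41 in both groups labelled 4T1, with 13 for EXOmock and 12 for EXOuniSTING. The summed level of the 41 genes was 8230 CPM in Mock labelled DC2.4, 1160 CPM in Mock labelled 4T1 and 1720 CPM in EXOmock. Between the Mock groups, 34 of the 40 genes tested were lower in the libraries labelled 4T1 and 2 were higher, against 42.4% and 40.5% of all genes tested. The comparison sets one cell line against another, and in bulk libraries fewer cells of a type and less RNA per cell cannot be told apart.

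Per kb of exon, the genes with the highest levels in Mock labelled DC2.4 were Thbs1 at 178.8 CPM per kb, Fn1 at 162.7 CPM per kb and Timp2 at 133.0 CPM per kb. Thbs1 encodes thrombospondin 1, a matricellular protein that can activate latent TGF-beta, Fn1 encodes fibronectin, and Timp2 encodes a metalloprotease inhibitor. In Mock labelled 4T1 the order was different, led by Tgfb1 at 46.23, Timp2 at 37.24, Lamc1 at 32.85 and Plod1 at 31.09 CPM per kb. In EXOmock, Thbs1 led again at 140.1 CPM per kb, ahead of Tgfb1 at 34.29 CPM per kb. The 2 genes that were higher in Mock labelled 4T1 than in Mock labelled DC2.4 were Tgfb1, by 2.09 on the log2 scale (SE 0.03, adjusted p = 6.55e-17), and Plod1, by 3.65 (SE 0.05, adjusted p = 6.34e-17). Plod1 encodes a lysyl hydroxylase that modifies collagen inside the cell.

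Many of the genes separated the Mock groups almost completely. Ltbp1 had 10113 counts in Mock labelled DC2.4 and 1 in Mock labelled 4T1, and Mmp14 had 8830 and 2. Fn1 had 33308 and 41845 counts in Mock labelled DC2.4 and 10 and 14 counts in Mock labelled 4T1. The tenascin gene Tnc had 310 and 427 counts against 0 in both libraries, so it was at least 268-fold lower in Mock labelled 4T1, taking 3 counts over the group as the floor. Tgfb3 was likewise at 0 there and at least 373-fold lower. Lamc1, which encodes the laminin gamma 1 chain, and the type I receptor gene Tgfbr1 were near the opposite case. Both were called lower in Mock labelled 4T1, but their pooled rates there were still 0.927 and 0.881 of those in Mock labelled DC2.4. Lamc1 stood at 293.7 ± 2.09 CPM (SD, n = 2) in Mock labelled DC2.4, 271.7 ± 3.21 CPM in Mock labelled 4T1 and 161.1 ± 5.84 CPM in EXOmock, and Tgfbr1 stayed between 55.69 and 67.24 CPM in all 12 libraries.

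**Figure D1:**
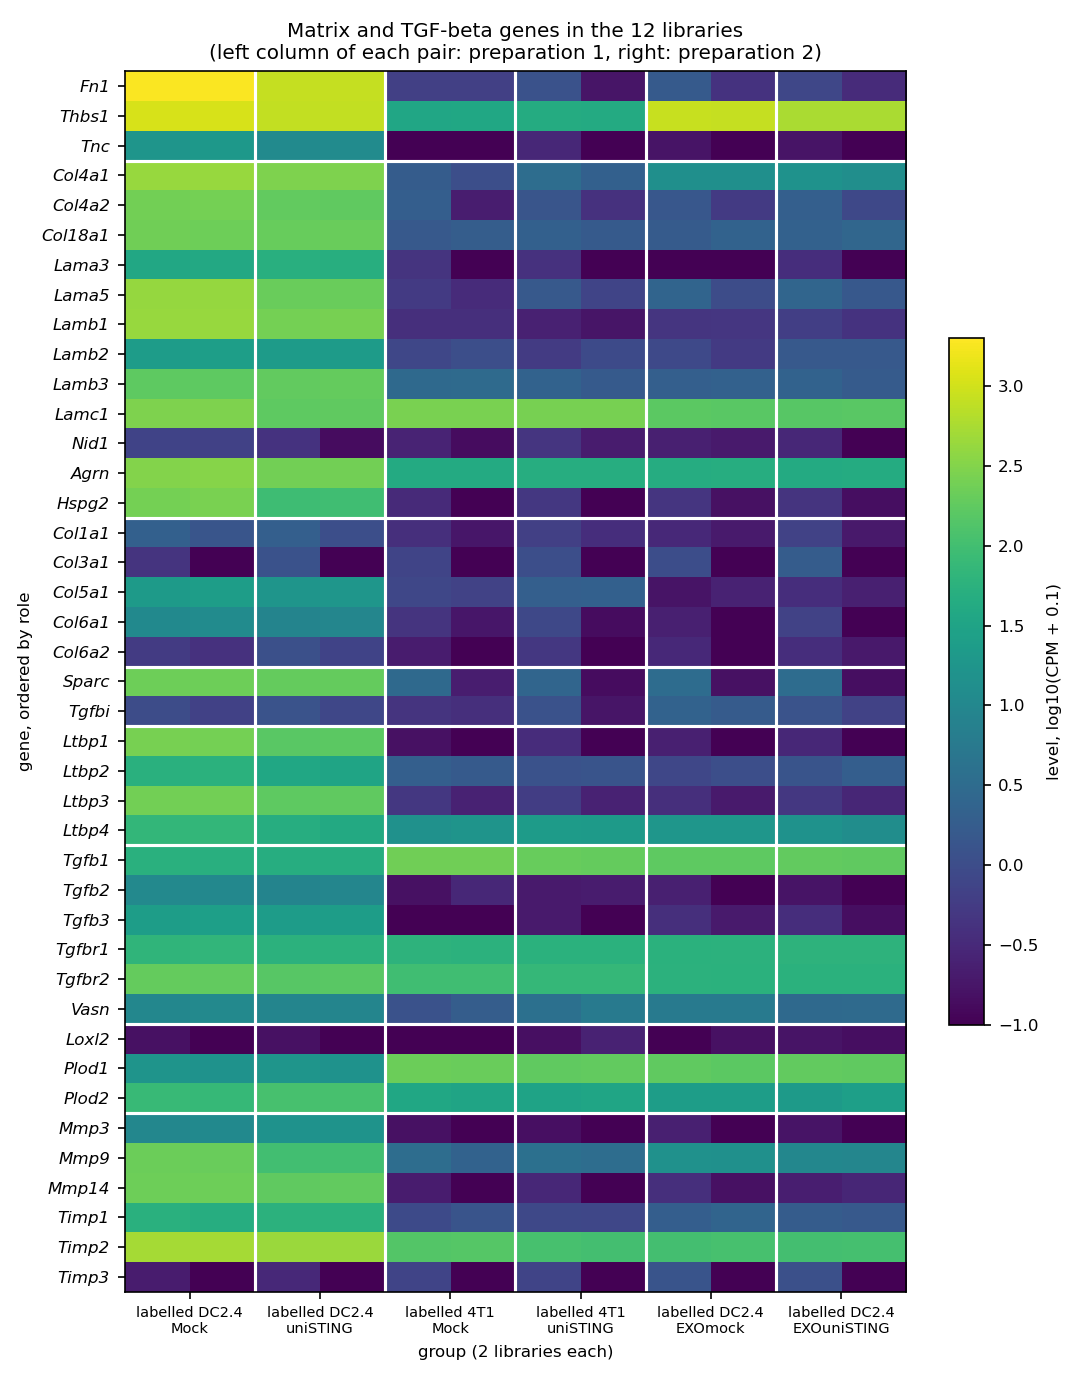
Level of each of the 41 genes (rows, ordered by role) in each of the 12 libraries (columns, paired by group), as log10(CPM + 0.1). The 4 mRNA-treated libraries labelled DC2.4 hold 34 genes at 5 CPM or more, and Tgfbr1 and Lamc1 are among the few with a like color in every column.

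In the libraries labelled DC2.4, most of the matrix genes tested were lower with uniSTING mRNA than with Mock mRNA. Of the 40 genes tested, 22 fell and 3 rose, against 20.9% lower and 20.8% higher among all 14863 genes tested. Among genes of 5 CPM or more, 22 of 34 fell and 3 rose, against 28.3% and 26.9% of all such genes. At least 2-fold lower were 4 genes, Hspg2, Fn1, Mmp9 and Lama5, against 1.46% of all genes tested. The median log2 fold change was -0.24 over the 40 genes and 0.00 over all genes tested. Both uniSTING libraries lay below both Mock libraries for 29 of the 40 genes and above them for 6. The shares of all genes tested were 35.7% and 33.4%. Loxl2, a collagen crosslinking enzyme gene with at most 4 counts in any library, was not tested.

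Adhesive glycoproteins were lower. Fn1 (ENSMUSG00000026193, GRCm39 chromosome 1, 71624679 to 71692359, minus strand) stood at 1903 and 1899 CPM in the Mock libraries and at 839.9 and 820.2 CPM in the uniSTING libraries. All uniSTING values lay below all Mock values, and the fold change was -1.18 on the log2 scale (SE 0.06, adjusted p = 4.43e-09, edgeR quasi-likelihood test). Thbs1 (ENSMUSG00000040152, GRCm39 chromosome 2, 117942357 to 117957614, plus strand) stood at 1087 and 1085 CPM against 811.5 and 817.2 CPM. It too was lower without overlap, by less than Fn1, with a log2 fold change of -0.40 (SE 0.02, adjusted p = 8.51e-10). Tnc, which encodes tenascin-C, fell by 0.65 (SE 0.21, adjusted p = 0.027) from 18.54 to 11.66 CPM, a call that was lost whichever of the 4 libraries was left out (adjusted p = 0.0841 to 0.200).

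Among the 12 basement membrane genes, 8 fell, 1 rose and 3 did not pass the test, against 20.9% lower and 20.8% higher of all genes tested. The length trend described below was not removed from this count. The perlecan gene Hspg2 (ENSMUSG00000028763, GRCm39 chromosome 4, 137196080 to 137297941, plus strand), which encodes a heparan sulfate proteoglycan, had 252.1 and 268.5 CPM in Mock and 92.71 and 94.25 CPM in uniSTING libraries. Its groups stood apart, and its log2 fold change was the lowest among the genes called in this comparison, at -1.46 (SE 0.08, adjusted p = 2.55e-09). The laminin chains of the common basement membrane trimers fell together. Lama5, the alpha 5 chain, went from 424.1 and 420.2 to 204.1 and 206.7 CPM (log2 fold change -1.02, SE 0.05, adjusted p = 1.25e-09). Lamb1, the beta 1 chain, went from 438.6 and 429.2 to 247.6 and 257.0 CPM (log2 fold change -0.76, SE 0.03, adjusted p = 3.54e-11). Lamc1 went from 295.2 and 292.2 to 171.1 and 175.1 CPM (log2 fold change -0.74, SE 0.03, adjusted p = 1.86e-10), so the groups did not overlap for any of the 3 chains.

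Lamb3 and Lama3, chains of the laminin that anchors epithelial cells to the basement membrane, were not called lower. Lamb3, its beta 3 chain, stood at 170.4 and 172.0 CPM in Mock and 181.4 and 188.7 CPM in uniSTING libraries (log2 fold change 0.13, SE 0.04, adjusted p = 0.0113). That small rise was lost without Mock preparation 1, Mock preparation 2 or uniSTING preparation 2 (adjusted p = 0.0725, 0.0675 and 0.139). Lama3, its alpha 3 chain, had 37.25 and 39.79 CPM against 50.89 and 48.74 CPM, a log2 difference of 0.39 that did not pass the test (SE 0.18, adjusted p = 0.0973). Whether these genes respond differently from Lama5, Lamb1 and Lamc1 was not tested.

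Agrn, which encodes the proteoglycan agrin, went from 320.1 and 329.6 to 242.7 and 246.9 CPM (log2 fold change -0.39, SE 0.02, adjusted p = 2.13e-08). Col18a1, whose product yields endostatin, fell by 0.12 (adjusted p = 0.012), a call lost without preparation 1 of Mock or of uniSTING (adjusted p = 0.140 and 0.111). The laminin beta 2 gene Lamb2 did not pass (log2 fold change -0.11, adjusted p = 0.532), and the nidogen gene Nid1 was under 1 CPM in every library.

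The type IV collagen chains are encoded by a pair of genes in head-to-head orientation. In the RefSeq promoter table, on build GRCm38.p6, the start sites of Col4a1 and Col4a2 lie 21 bases apart on chromosome 8, and their windows of 250 bases before to 50 bases after the start share 78 bases. Col4a1 fell from 427.0 and 434.1 to 294.6 and 299.7 CPM and Col4a2 from 239.3 and 251.9 to 181.5 and 178.5 CPM. Their log2 fold changes were -0.52 (SE 0.04, adjusted p = 7.75e-08) and -0.43 (SE 0.10, adjusted p = 0.00255). The Col4a2 window is shown because both genes fell, and that of Hspg2 because it fell most. That of Mmp3 is shown because Mmp3 had the largest log2 rise among the called genes. Most of the Col4a2 window lies downstream of the Col4a1 start, which is at base 11312826 on the minus strand. The windows are chr8:11312555-11312854, chr4:137468553-137468852 and chr9:7445572-7445871 of GRCm38.p6, all on the plus strand, with GC boxes (GGGCGG or CCGCCC), the AP-1 site (TGANTCA) and the TATA box (TATAAA) in capitals.
Col4a2: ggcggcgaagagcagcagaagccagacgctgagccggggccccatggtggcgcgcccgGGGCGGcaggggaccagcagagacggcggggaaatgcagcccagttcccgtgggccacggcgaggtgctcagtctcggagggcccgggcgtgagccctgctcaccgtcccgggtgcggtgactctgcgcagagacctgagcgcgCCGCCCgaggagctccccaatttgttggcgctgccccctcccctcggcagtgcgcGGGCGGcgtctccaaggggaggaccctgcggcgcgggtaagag
Hspg2: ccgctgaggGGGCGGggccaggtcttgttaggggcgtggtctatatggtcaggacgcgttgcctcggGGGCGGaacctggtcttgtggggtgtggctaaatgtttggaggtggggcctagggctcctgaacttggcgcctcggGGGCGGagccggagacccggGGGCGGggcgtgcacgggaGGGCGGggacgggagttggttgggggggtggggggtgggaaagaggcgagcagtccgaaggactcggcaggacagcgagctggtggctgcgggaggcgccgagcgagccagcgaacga
Mmp3: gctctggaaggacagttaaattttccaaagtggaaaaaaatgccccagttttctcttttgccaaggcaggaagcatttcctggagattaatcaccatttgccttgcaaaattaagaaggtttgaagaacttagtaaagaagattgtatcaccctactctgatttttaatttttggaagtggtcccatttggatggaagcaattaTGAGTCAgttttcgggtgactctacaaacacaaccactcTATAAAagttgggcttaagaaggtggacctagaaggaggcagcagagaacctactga

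The Col4a2 and Hspg2 windows are 73.7% and 70.3% G and C and hold 3 and 5 GC boxes, while the Mmp3 window holds an AP-1 site and a TATA box instead. Searched on both strands, the GC box was in 22 of the 32 member promoters in the table and in 35.7% of all 32851 promoters. The AP-1 site was in 3 of the 32, in Mmp3, Ltbp3 and Col6a1, and in 7.81% of all, and the TATA box in 5 of the 32 and in 13.6% of all. The palindromic SMAD box GTCTAGAC was in none of the 32 windows and in 0.213% of all, and the SMAD element CAGACAG was in 5 of the 32 and in 7.73% of all. The promoters of Fn1, Thbs1, Mmp9, Lamc1, Lama3, Plod2, Tgfb3, Col1a1 and Loxl2 were not analysed here.

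Genes of fibrillar collagen and collagen VI were low in these libraries. Col5a1, which encodes a minor fibrillar collagen, fell by 0.36 on the log2 scale (SE 0.11, adjusted p = 0.0179), with 21.77 and 24.32 CPM in Mock and 17.46 and 17.95 CPM in uniSTING libraries. Its call was lost without Mock preparation 2, uniSTING preparation 1 or uniSTING preparation 2 (adjusted p = 0.193, 0.0979 and 0.0834). Col6a1 stood at 11.3 and 8.98 CPM and did not pass (adjusted p = 0.626). It was called lower when edgeR was fitted to only the libraries compared (log2 fold change -0.31, adjusted p = 0.0281). Col1a1, the main fibrillar collagen gene, was at 1.64 and 1.45 CPM, and Col3a1 and Col6a2 were under 1 CPM on average in every group. The matricellular gene Sparc stood at 222.1 and 225.3 CPM in Mock and 195.8 and 188.7 CPM in uniSTING libraries, without overlap. It did not pass the test in the fit of all libraries (log2 fold change -0.20, SE 0.19, adjusted p = 0.438). With edgeR on only the libraries compared, Sparc was called lower (log2 fold change -0.20, adjusted p = 7.45e-05). Tgfbi, a TGF-beta induced matrix gene, was at 0.75 and 0.94 CPM.

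All 4 genes of latent TGF-beta binding proteins fell, by similar amounts, against 20.9% of all genes tested. Ltbp1 had 257.3 and 254.5 CPM in Mock and 161.3 and 161.8 CPM in uniSTING libraries, without overlap (log2 fold change -0.64, SE 0.06, adjusted p = 4.38e-07). Ltbp2, Ltbp3 and Ltbp4 fell by 0.64, 0.48 and 0.66 on the log2 scale (adjusted p = 4.89e-05, 6.59e-07 and 1.32e-05), from 53.96, 244.8 and 70.46 CPM in Mock. The counts were made without strand, so the value of Ltbp3, which has an overlap on the opposite strand, is less certain.

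Of the 6 genes of TGF-beta ligands, receptors and the ligand trap Vasn, 3 fell and 3 did not pass. Of all genes tested, 20.9% fell. Tgfb1 stood at 53.36 and 50.73 CPM in Mock and 47.87 and 47.06 CPM in uniSTING libraries, a log2 fold change of -0.11 (SE 0.04, adjusted p = 0.0338). That call was lost without Mock preparation 1, uniSTING preparation 1 or uniSTING preparation 2 (adjusted p = 0.275, 0.0549 and 0.214). Tgfb2, with 10.40 and 10.25 against 8.65 and 9.21 CPM, and Tgfb3, with 24.68 and 27.00 against 23.99 and 24.53 CPM, did not pass (log2 fold changes -0.19 and -0.07, SE 0.23 and 0.15, adjusted p = 0.571 and 0.751). Tgfbr1, the type I receptor gene, fell from 66.22 and 67.24 to 57.79 and 57.04 CPM (log2 fold change -0.20, SE 0.04, adjusted p = 0.000876). Tgfbr2, the type II receptor gene, fell from 192.2 and 184.8 to 152.1 and 156.0 CPM (log2 fold change -0.27, SE 0.03, adjusted p = 3e-06), and neither receptor's groups overlapped. Vasn, which encodes vasorin, a membrane protein that binds TGF-beta, did not pass (log2 fold change -0.16, adjusted p = 0.512).

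Enzymes moved in both directions. Mmp9, the gelatinase B gene, went from 212.0 and 207.9 to 98.71 and 100.3 CPM (log2 fold change -1.06, SE 0.04, adjusted p = 1.71e-10). Mmp14, a membrane-bound metalloprotease gene, fell by 0.27 (adjusted p = 0.000528) and Timp2 by 0.17 (adjusted p = 0.00025). Mmp3, the stromelysin 1 gene, went the other way, from 9.83 and 11.03 to 15.55 and 16.03 CPM (log2 fold change 0.62, SE 0.21, adjusted p = 0.0306), a call lost whichever of the 4 libraries was left out (adjusted p = 0.0980 to 0.168). Plod2, which hydroxylates lysines in collagen telopeptides, rose by 0.55 on the log2 scale (SE 0.05, adjusted p = 1.45e-06), with 79.70 and 77.13 CPM in Mock and 113.4 and 113.6 CPM in uniSTING libraries. Its relative Plod1, at 15.99 and 16.40 CPM, did not pass (adjusted p = 0.669), nor did Timp1 (log2 fold change 0.20, adjusted p = 0.060). Timp3 was under 1 CPM on average in all groups.

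**Figure D2:**
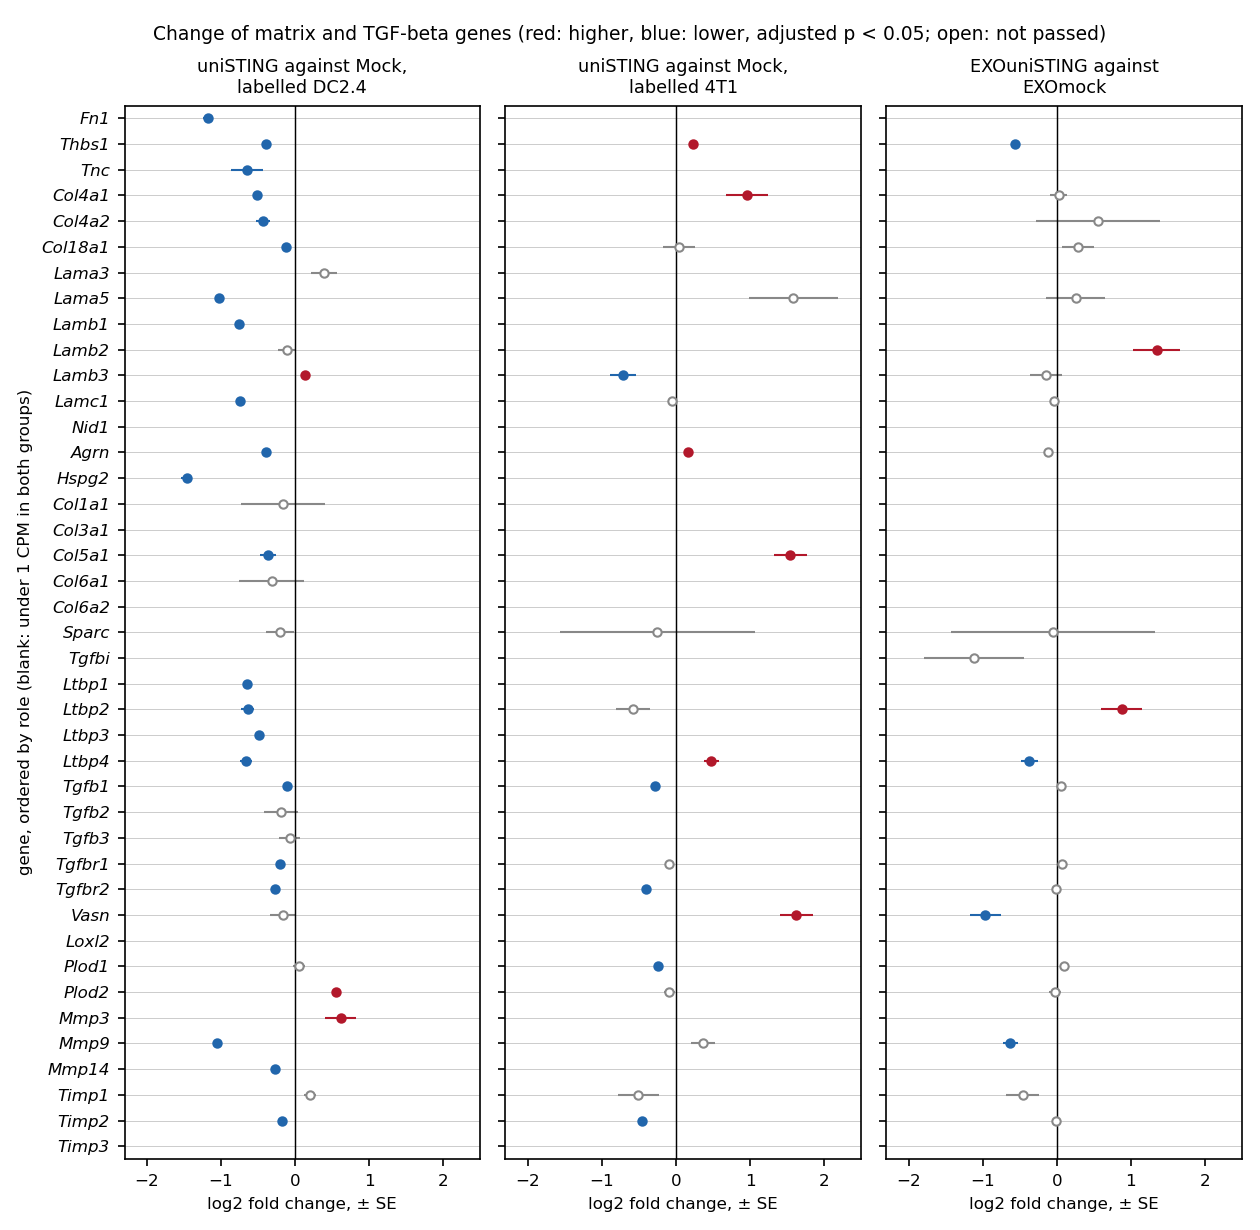
Log2 fold change ± SE (x axis) of each gene of at least 1 CPM in either group, in the 3 comparisons of uniSTING with its control (2 libraries a group). Blue points are lower and red points higher at an adjusted p under 0.05, and open points did not pass; 22 are blue and 3 red in the libraries labelled DC2.4.

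Fold changes of all genes in this comparison went with gene length. Over the 9977 genes of 5 CPM or more, the log2 fold change and the exonic length had a Spearman's rho of -0.459, and binned by length the median log2 fold change ran from 0.26 (shortest 10%) to -0.27 (longest 10%). In the libraries labelled 4T1 and the vesicle-treated ones rho was -0.124 and -0.145. Genes in one library share its RNA and its preparation, so this rho is a description. The matrix genes are long, with a median of 6.62 kb against 4.58 kb for all, and 26 of the 34 lay in the longer 50% of genes. With the length trend removed, 19 of the 40 genes were lower and 3 higher, against 20.8% and 17.8% of all genes. The median over the 40 was -0.23, and the removal shifted all genes by a median of -0.04. Hspg2 then stood at -1.17, Fn1 at -0.95, Lama5 at -0.80 and Mmp9, a shorter gene of 3.54 kb, at -1.12. The calls of Tnc, Col5a1, Col18a1 and Mmp3 were lost (adjusted p = 0.0606, 0.120, 0.285 and 0.130), and Lama3 was called higher (log2 fold change 0.59, adjusted p = 0.018). The part of length in the falls was not tested further.

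**Figure D3:**
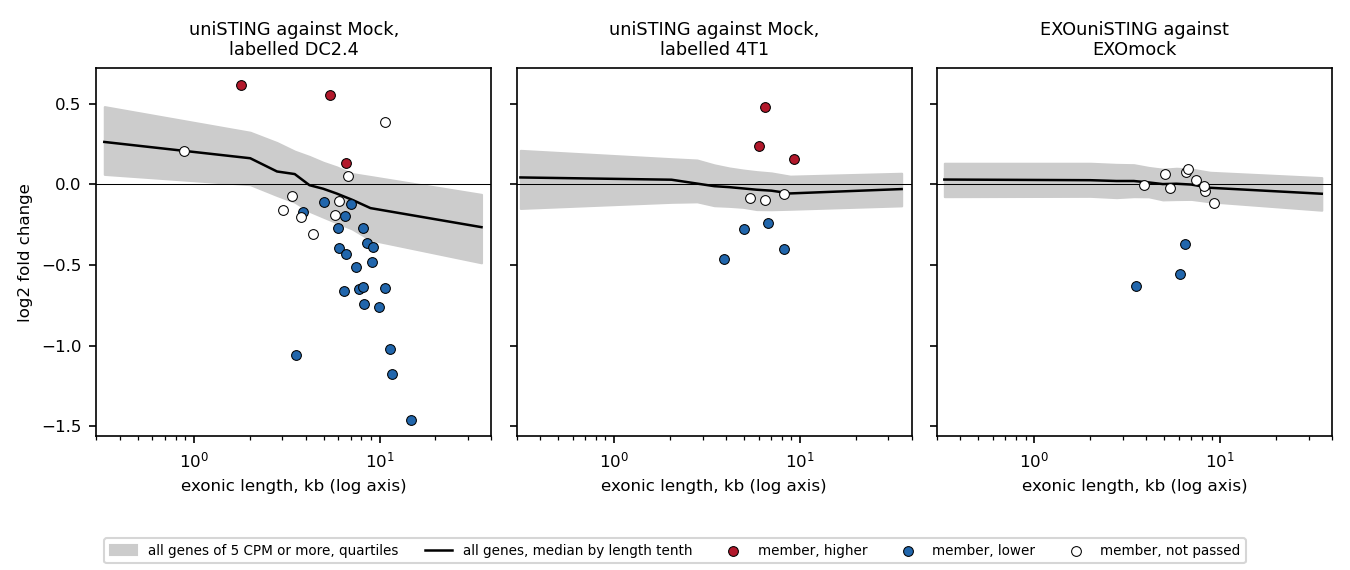
Log2 fold change (y axis) against exonic length in kb (x axis, log scale) for genes of 5 CPM or more, with the median (line) and quartiles (gray) of all genes in 10 bins of length and the matrix genes as points (red higher, blue lower, white not passed). In the libraries labelled DC2.4 the line falls from 0.26 to -0.27, and Hspg2, Fn1, Mmp9 and Lama5 lie lowest among the blue points.

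DESeq2 on all 12 libraries called 15 of these genes lower and 2 higher. The shares of all genes called by DESeq2 are not given here, so its counts have no background beside them. It lost Fn1 (adjusted p = 0.408), Hspg2 (0.536), Lama5 (0.077), Col4a2 (0.823) and Ltbp1 (0.820), and also Tgfb1, Col5a1 and Lamb3, with a log2 fold change of -1.19 and a standard error of 1.04 for Fn1. Fitted to only the 4 libraries compared, a setting chosen after the data were seen, DESeq2 gave a standard error of 0.02 for Fn1 and called 22 lower and 5 higher. Of the 25 genes called by edgeR, that fit lost Tgfb1 alone. It gained Sparc (log2 fold change -0.21, adjusted p = 1.37e-06), Lama3 (0.38, adjusted p = 3.46e-05) and Timp1 (0.20, adjusted p = 0.0306), which did not pass in the edgeR fit of all 12 libraries. With edgeR on only those 4 libraries, Sparc, Lama3 and Timp1 were called too (adjusted p = 7.45e-05, 0.000422 and 0.0158). That edgeR fit also gained Col6a1 (adjusted p = 0.0281) and lost Tgfb1 (adjusted p = 0.102).

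In the libraries labelled 4T1, where most matrix genes were near the floor, uniSTING against Mock gave 6 higher and 5 lower genes of 40, against 12.6% and 15.7% of all genes tested. The median log2 fold change was 0.10 over the 40 genes and -0.01 over all genes tested, but -0.09 over the 10 genes of 5 CPM or more. Both uniSTING libraries lay below both Mock libraries for 10 of the 40 genes and above them for 8. The shares of all genes tested were larger, at 29.6% and 33.9%. The TGF-beta ligand and its receptor fell. Tgfb1 (ENSMUSG00000002603, GRCm39 chromosome 7, 25386427 to 25404502, plus strand) went from 236.7 and 229.5 to 198.2 and 193.8 CPM (log2 fold change -0.28, SE 0.02, adjusted p = 2.21e-06). Tgfbr2 went from 97.44 and 94.23 to 73.16 and 74.18 CPM (log2 fold change -0.40, SE 0.03, adjusted p = 1.15e-06), and for both genes the groups stood apart. Tgfbr1, at 60.30 and 57.79 against 55.90 and 56.55 CPM, did not pass (log2 fold change -0.09, SE 0.04, adjusted p = 0.0894). Tgfb2 and Tgfb3 had at most 5 counts in any of these libraries.

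Timp2 fell from 142.6 and 147.6 to 110.5 and 105.2 CPM (log2 fold change -0.46, SE 0.04, adjusted p = 5.26e-07) and Plod1 from 213.8 and 206.9 to 177.7 and 184.8 CPM (log2 fold change -0.24, SE 0.03, adjusted p = 0.000138). Both were lower in each uniSTING library than in each Mock library. Lamc1, at 271.7 and 266.2 CPM, did not pass (adjusted p = 0.156), nor did Plod2 (adjusted p = 0.396).

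Thbs1, Ltbp4 and Vasn rose in the same libraries. Thbs1 had 35.35 and 36.65 CPM in Mock and 43.68 and 43.12 CPM in uniSTING libraries (log2 fold change 0.24, SE 0.03, adjusted p = 8.49e-05). Ltbp4 had 15.05 and 16.50 against 23.01 and 22.06 CPM (log2 fold change 0.48, SE 0.10, adjusted p = 0.00267). Vasn (ENSMUSG00000039646, GRCm39 chromosome 16, 4457805 to 4468666, plus strand) was lower in level, at 1.12 and 1.79 against 3.77 and 5.54 CPM, or 20 and 45 against 74 and 144 counts. None of the 3 genes overlapped between groups, and Vasn had a log2 fold change of 1.63 (SE 0.22, adjusted p = 0.00011). Vasn shares 160 bases, 5.32% of its exons, with Dnaja3 on the same strand; Dnaja3 did not pass in this comparison (log2 fold change -0.06, adjusted p = 0.108).

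Agrn had 41.78 and 41.64 against 47.70 and 47.31 CPM (log2 fold change 0.16, SE 0.04, adjusted p = 0.010), a call lost without Mock preparation 2 (adjusted p = 0.0531). Among genes of a few CPM, Col5a1 rose from 13 and 15 to 38 and 51 counts (log2 fold change 1.55, SE 0.22, adjusted p = 0.000159). Col4a1 rose from 1.68 and 0.99 to 3.31 and 1.96 CPM (log2 fold change 0.96, adjusted p = 0.0201), which was lost without Mock preparation 2 (adjusted p = 0.269) or uniSTING preparation 1 (adjusted p = 0.177). Lamb3 fell from 51 and 74 to 42 and 40 counts (log2 fold change -0.72, adjusted p = 0.00734), which was lost without Mock preparation 2 (adjusted p = 0.0681) or uniSTING preparation 2 (adjusted p = 0.184). Fn1 had 10 and 14 counts in Mock and 22 and 2 in uniSTING libraries, and its change could not be read. The ratio of its pooled rates was 0.945. The 95% counting interval of 0.514 to 1.74 leaves out the spread between libraries. With 1 library left out, the log2 fold change ran from -2.77 to 0.97.

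In the vesicle-treated libraries, EXOuniSTING against EXOmock gave 4 lower and 2 higher genes of 40, against 8.14% and 7.96% of all genes tested, with a median of -0.01 over the 40 and 0.00 over all. Both EXOuniSTING libraries lay below both EXOmock libraries for 7 of the 40 genes and above them for 5. The shares of all genes tested were larger, at 28.1% and 28.0%. Thbs1 led by level. Both EXOmock libraries, at 854.9 and 846.3 CPM, lay above both EXOuniSTING libraries, at 577.6 and 578.4 CPM (log2 fold change -0.56, SE 0.02, adjusted p = 1.87e-09). Mmp9 had 14.87 and 14.28 against 9.51 and 9.33 CPM (log2 fold change -0.63, SE 0.10, adjusted p = 0.000712). Vasn had 5.76 and 5.67 against 2.88 and 2.97 CPM (log2 fold change -0.96, SE 0.21, adjusted p = 0.00724), and these 3 genes were lower in every EXOuniSTING library. The Vasn neighbour Dnaja3 rose by 0.11 (adjusted p = 0.0204).

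Ltbp4 fell from 17.92 and 18.02 to 15.68 and 12.48 CPM (log2 fold change -0.37, SE 0.11, adjusted p = 0.040), a call lost without EXOmock preparation 1, EXOmock preparation 2 or EXOuniSTING preparation 2 (adjusted p = 0.116, 0.155 and 0.374). The 2 higher genes were near 1 CPM. Lamb2 rose from 11 and 8 to 22 and 32 counts (log2 fold change 1.35, adjusted p = 0.0102), and was lost without EXOmock preparation 2 or EXOuniSTING preparation 2 (adjusted p = 0.179 and 0.0617). Ltbp2 rose from 10 and 18 to 18 and 39 counts (log2 fold change 0.87, adjusted p = 0.0483), and was lost without EXOmock preparation 1, EXOmock preparation 2 or EXOuniSTING preparation 2 (adjusted p = 0.239, 0.10 and 0.543).

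The TGF-beta ligand and receptor genes did not pass in this comparison. Tgfb1 had 172.1 and 173.8 against 182.3 and 179.3 CPM (log2 fold change 0.06, SE 0.03, adjusted p = 0.138). Tgfbr1 had 55.69 and 58.14 against 59.69 and 60.28 CPM (log2 fold change 0.07, SE 0.04, adjusted p = 0.280), and Tgfbr2 had 57.90 and 56.26 against 56.54 and 56.52 CPM (log2 fold change -0.01, SE 0.04, adjusted p = 0.929). Tgfb1 and Tgfbr1 did not overlap between groups, Tgfbr2 did. Tgfb2 and Tgfb3 had 0 to 4 counts a library, and Fn1 had 28 counts in EXOmock and 16 in EXOuniSTING.

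**Figure D4:**
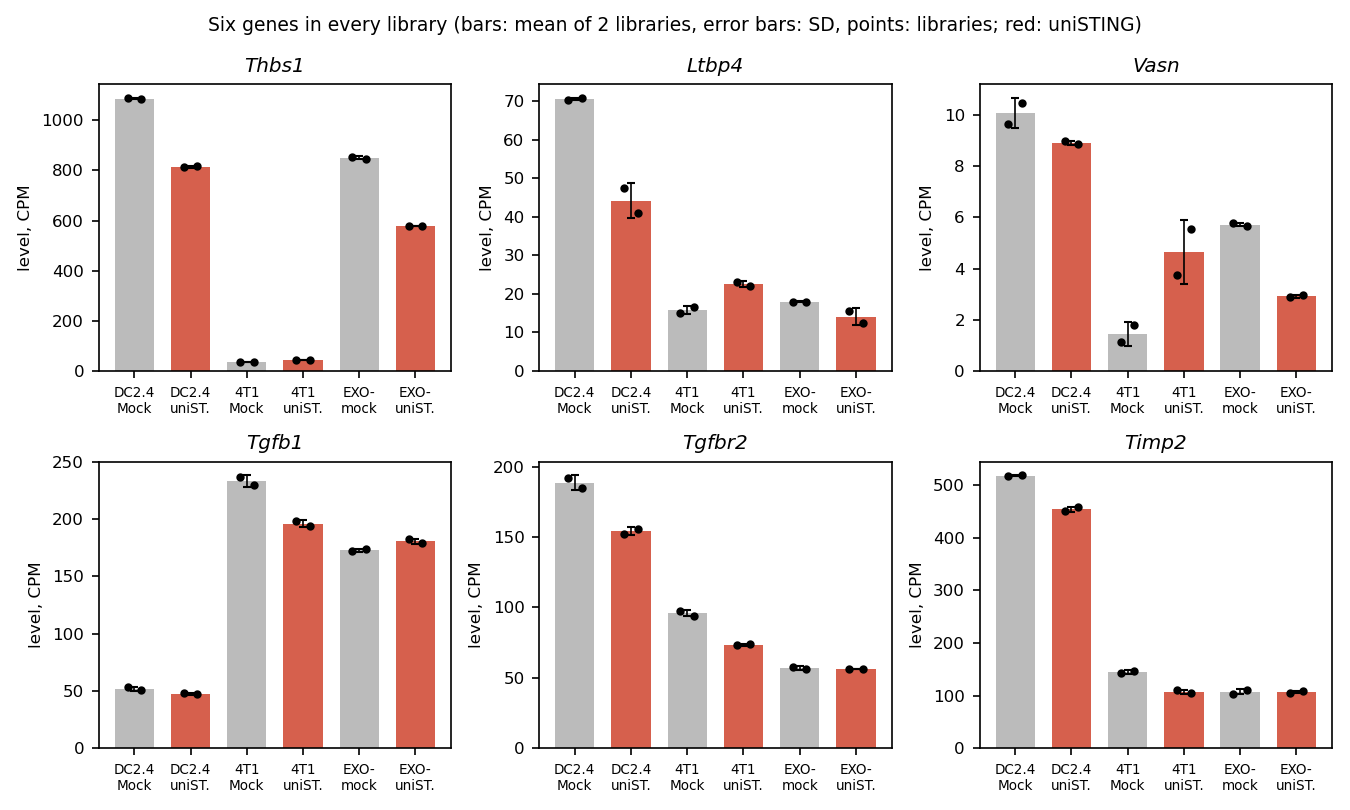
Level in CPM (y axis) of 6 genes in the 6 groups (x axis; bars are means of 2 libraries, error bars SD, points libraries; gray control, red uniSTING). Thbs1 is lower with uniSTING at the DC2.4 label (1086 to 814.3) and in the vesicle groups (850.6 to 578.0) and higher at the 4T1 label (36.0 to 43.4).

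The response to uniSTING mRNA itself differed between the labels for 15 of the 40 genes, 9 with a higher and 6 with a lower log2 fold change in the libraries labelled 4T1, against 15.1% and 16.0% of all genes tested. Thbs1 fell by 0.40 at the DC2.4 label and rose by 0.24 at the 4T1 label, a difference of 0.63 (SE 0.04, adjusted p = 1.79e-08). Ltbp4 fell by 0.66 and rose by 0.48, a difference of 1.14 (SE 0.13, adjusted p = 1.22e-05). Lamc1, which has like levels in both Mock groups, fell by 0.74 at the DC2.4 label and had a log2 fold change of -0.06 at the 4T1 label (difference 0.68, SE 0.04, adjusted p = 2.59e-08). For Timp2 and Plod2 the response at the 4T1 label was lower, by 0.29 and 0.64 (adjusted p = 0.000217 and 7.48e-05). Tgfb1 and Tgfbr2 differed by -0.17 and -0.13 (adjusted p = 0.012 and 0.0306). Without preparation 2 of Mock labelled DC2.4 both were lost (adjusted p = 0.127 and 0.137). Tgfbr2 was also lost without uniSTING labelled DC2.4 preparation 2 (adjusted p = 0.104), Mock labelled 4T1 preparation 1 (0.0796) or uniSTING labelled 4T1 preparation 1 (0.0788).

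Vesicle and mRNA responses were also compared, taking the libraries labelled 4T1 for the mRNA, whose myeloid markers were high as in the vesicle-treated ones. This contrast shares the 4T1-labelled libraries with the one before it. It gave 7 higher and 6 lower genes, against 15.0% and 13.0% of all genes tested. Thbs1, Ltbp4 and Vasn had lower responses to vesicles, by -0.79, -0.85 and -2.59 (adjusted p = 8.39e-09, 0.000835 and 3.18e-05). Tgfb1, Tgfbr2, Timp2 and Plod1 had higher ones, by 0.34, 0.39, 0.45 and 0.33 (adjusted p = 1.22e-05, 9.19e-05, 2.3e-05 and 0.000248). The vesicle and mRNA experiments differ in more than the agent, and treatment time and experiment cannot be told apart from it.

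The levels of the collagen IV pair were further apart in the vesicle-treated libraries than in the mRNA-treated ones labelled DC2.4. Per kb of exon, Col4a1 stood at 57.68 and Col4a2 at 37.10 CPM per kb in Mock labelled DC2.4. In EXOmock, Col4a1 had 457 counts in the 2 libraries, or 1.87 CPM per kb, and Col4a2 had 27 counts, or 0.13 CPM per kb. In Mock labelled 4T1 they had 55 and 36 counts, or 0.18 and 0.15 CPM per kb. The genes share 22 exonic bases on opposite strands. This contrast between the chains was looked at after the values were seen.

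Other genes of these pathways were counted in the same fit. Their lists were drawn up by function, with earlier results of these data known. The length trend was not removed from the counts and fold changes of any list. At the DC2.4 label, 62.8% of the longest 10% of genes of 5 CPM or more were lower. In the libraries labelled DC2.4, 14 of 34 tested TGF-beta receptors, SMADs and regulators fell and 0 rose, against 20.9% and 20.8% of all genes tested, with a median of -0.14 against 0.00. Whether or not they passed, 28 of the 34 lay below 0, as did 7018 of all 14863 genes. The members with the smallest adjusted p were the SMAD corepressor gene Ski, which fell by 0.69 from 96.24 to 59.00 CPM (adjusted p = 8.51e-10), the BMP type II receptor gene Bmpr2 by 0.88 (adjusted p = 2.34e-09), and the integrin alpha v gene Itgav by 0.42 (adjusted p = 4.31e-08), which helps release TGF-beta from its latent form. Of 18 TGF-beta target genes, 8 fell and 1 rose (44.4% and 5.56%, against the same shares of all genes), with Pdgfb at -0.82, Zeb2 at -0.70 and the intermediate filament gene Vim at -0.22. Of 25 matrix receptor genes, 11 fell and 6 rose (44.0% and 24.0%), with the endocytic receptor gene Lrp1 at -1.47, the integrin beta 5 gene Itgb5 at -0.63 and Rpsa at 0.21.

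The other lists were set against the same 20.9% lower and 20.8% higher of all genes. Of 27 other structural matrix genes, 5 fell and 3 rose (18.5% and 11.1%, the first near that of all genes), with Fbln2 at -0.62 from 693.1 CPM, the anchoring fibril collagen gene Col7a1 at -0.52 and the osteopontin gene Spp1 at 0.44. Of 23 collagen modification genes, 8 fell and 5 rose (34.8% and 21.7%), and the 3 with the smallest adjusted p all rose: the prolyl hydroxylase subunit genes P4ha1 (0.52) and P4hb (0.32) and the cyclophilin gene Ppib (0.46). Of 29 matrix protease and inhibitor genes, 6 fell and 5 rose (20.7% and 17.2%, near those of all genes). The smallest adjusted p-values were those of the rises of Bsg (0.50), Ctsl (0.43) and Ctsb (0.25). These genes encode the metalloprotease inducer basigin and the cathepsins L and B.

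In the libraries labelled 4T1, 8 of the 34 receptor, SMAD and regulator genes fell and 1 rose (23.5% and 2.94%, against 15.7% and 12.6% of all genes). The proprotein convertase gene Furin, whose product cleaves the TGF-beta precursor, fell by 0.45 (adjusted p = 9.46e-07), Nrros, which encodes a partner of latent TGF-beta in myeloid cells, by 0.28 (adjusted p = 0.00015) and Ski by 0.17 (adjusted p = 0.000594). Of the 18 target genes 5 fell and 1 rose (27.8% and 5.56%), with Jun at -0.41, Junb at -0.23 and Vim at -0.13. The urokinase gene Plau fell by 0.51 from 854.9 to 612.0 CPM (adjusted p = 2.64e-09), while Spp1 rose by 0.23 from 6476 to 7755 CPM (adjusted p = 9.51e-09). The other lists had 2 to 6 genes in each direction, or 7.41% to 24.0% of their genes higher and 7.41% to 17.2% lower.

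In the vesicle-treated libraries 3 of the 34 were higher and 2 lower (8.82% and 5.88%), and 2 of the 18 higher and 3 lower (11.1% and 16.7%), against 7.96% and 8.14% of all genes. Gdf15, a distant TGF-beta family ligand gene, rose by 0.36 from 65.48 to 84.19 CPM (adjusted p = 0.00085). Vim rose by 0.32 (adjusted p = 2.35e-08), Plau by 0.41 (adjusted p = 4.42e-08) and the bridging protein gene Mfge8 by 0.39 (adjusted p = 4.89e-06). The integrin alpha 6 gene Itga6 fell by 0.28 (adjusted p = 5.64e-06) and Lrp1 by 0.30 (adjusted p = 1.17e-05).

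Some of the low counts followed the preparation and not the treatment. Col3a1 had 6 to 25 counts in the 6 libraries of preparation 1 and 0 in all 6 of preparation 2, although these were 1.26 to 1.42 times deeper. Timp3 had 2 to 17 counts in preparation 1 and 0 in preparation 2. In the 4 groups labelled 4T1 or treated with vesicles, Sparc had 45 to 51 counts in preparation 1 and 1 to 3 in preparation 2, and Col4a2 had 19 to 33 against 3 to 16. Of 20 transcripts typical of other tissues, the 7 of lung and pancreas islets followed the preparation, with 15 to 2117 counts in preparation 1 and 0 to 3 in preparation 2. The summed level of the 20 was 146 to 232 CPM and 27.6 to 75.1 CPM in the same order, and in preparation 2 it was nearly all Mbp, a myelin gene with 464 to 1407 counts in preparation 1 and 680 to 1946 in preparation 2. Genes of heart and skeletal muscle among the 20 had 0 to 5 counts in any library. Their part in these counts was not tested. Each group holds 1 library of each preparation.

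**Figure D5:**
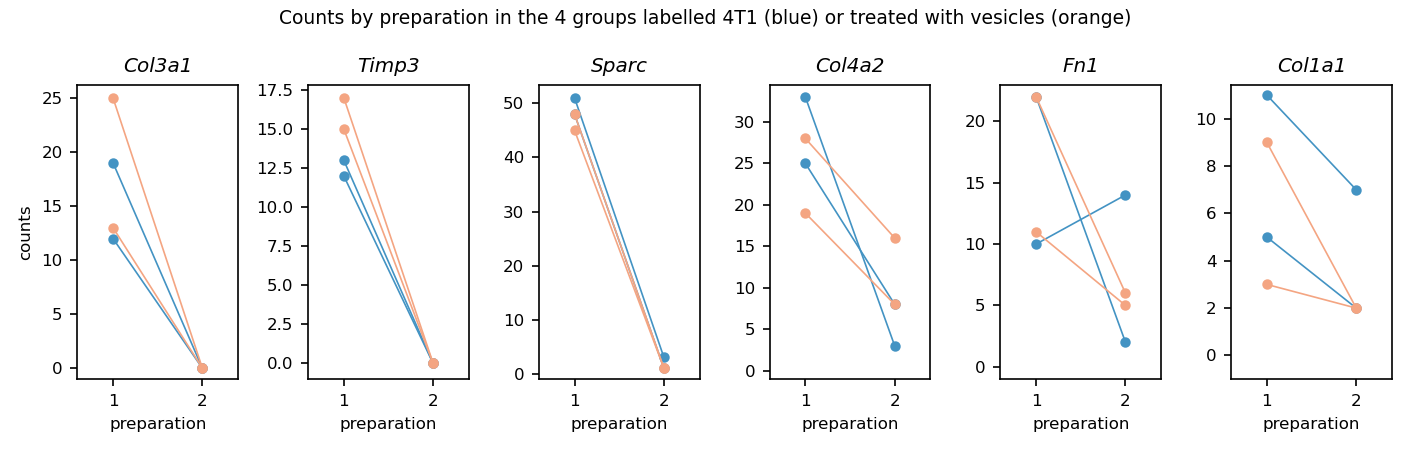
Counts (y axis) of 6 genes in preparation 1 and preparation 2 (x axis), with a line for each of the 4 groups labelled 4T1 (blue) or treated with vesicles (orange). Col3a1 and Timp3 are at 0 in each preparation 2 library, and Sparc drops from 45 to 51 counts to 1 to 3.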

How the data were processed

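Gene counts of 12 RNA-seq libraries were used as the authors deposited them. Per the file headers, featureCounts (Subread 2.0.1) counted paired, uniquely mapped reads over exons by gene without a strand option, and per the submitters' processing notes HISAT2 aligned to GRCm39. A gene name table gave symbols to 52093 of 53647 identifiers. All 12 libraries were fitted with edgeR 4.0.16 in R 4.3.3, with 1 mean per group, TMM factors and the filterByExpr filter, which kept 14863 genes. Contrasts were tested by quasi-likelihood F, and p-values were adjusted over all of these genes (Benjamini-Hochberg, threshold 0.05). The common biological coefficient of variation was 3.05%. Every adjusted p is from this fit unless another tool is named. Levels are CPM of deposited totals, with SD over 2 libraries, and standard errors are the fold change over the square root of F. Intervals and the floor of 3 counts cover counting error only.

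Alternatives were RLE and upper-quartile factors, other low-count filters, a preparation block, removal of a length trend (loess, span 0.5), a 1.2-fold minimum, limma-voom 3.58.1, DESeq2 1.42.0, fits of only the libraries compared, and leaving out each library. Members given by library were, per comparison, up to 8 called genes of 5 CPM or more by adjusted p, with Fn1, Thbs1 and the TGF-beta ligand and receptor genes always included. Other members were given more briefly, and some of these by library too. Of each pathway list up to 3 called genes were named by the same measure. The genes and lists were chosen with earlier results of these data known. Promoters are from a RefSeq table on GRCm38.p6, which held 32 of the 41 genes.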

Additional observations from a re-analysis of the deposited data

Results flagged for a closer look

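The response to uniSTING mRNA differed between the libraries labelled 4T1 and those labelled DC2.4 for 15 of the 40 genes tested. This was read from a contrast of both log2 fold changes in the edgeR fit. Over all genes tested, 15.1% had a higher and 16.0% a lower response at the 4T1 label. The share of lower genes among the 40 was near the latter. The response was higher at the 4T1 label for Lama5 (2.61), Col5a1 (1.91), Vasn (1.78), Col4a1 (1.48), Mmp9 (1.42), Ltbp4 (1.14), Lamc1 (0.68), Thbs1 (0.63) and Agrn (0.55). It was lower for Lamb3 (-0.85), Plod2 (-0.64), Timp2 (-0.29), Plod1 (-0.29), Tgfb1 (-0.17) and Tgfbr2 (-0.13). Lama5, Col5a1, Col4a1 and Lamb3 were under 3 CPM on average in both groups labelled 4T1. The calls of Lama5 and Lamb3 were lost without uniSTING labelled 4T1 preparation 1 (adjusted p = 0.0521) and preparation 2 (0.0539), in that order. Plod1 was lost without Mock preparation 2 or uniSTING preparation 1 labelled DC2.4 (adjusted p = 0.169 and 0.123), and the losses of Tgfb1 and Tgfbr2 are given with their values above.

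The response to vesicles differed from that to mRNA at the 4T1 label for 13 of the 40 genes by the same kind of contrast. Over all genes tested, 15.0% had a higher and 13.0% a lower response to vesicles. The shares of the 40 genes were near these in both directions. It was higher for Lamb2 (1.80), Ltbp2 (1.45), Timp2 (0.45), Tgfbr2 (0.39), Tgfb1 (0.34), Plod1 (0.33) and Tgfbr1 (0.17). It was lower for Vasn (-2.59), Mmp9 (-0.99), Col4a1 (-0.94), Ltbp4 (-0.85), Thbs1 (-0.79) and Agrn (-0.27). Both contrasts use the libraries labelled 4T1, so they are not separate evidence. Tgfbr1 was lost without any 1 of 6 libraries, all except Mock labelled 4T1 preparation 2 and EXOmock preparation 2 (adjusted p = 0.060 to 0.167). Col4a1 was lost without Mock preparation 2 or uniSTING preparation 1 labelled 4T1 (adjusted p = 0.306 and 0.210), either EXOmock library (0.0576 and 0.0679) or EXOuniSTING preparation 2 (0.0807). Lamb2 was lost without preparation 2 of Mock labelled 4T1 (adjusted p = 0.0628) or of EXOmock (0.0607), and Ltbp2 without EXOuniSTING preparation 2 (0.124).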

How the results depend on the processing

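With 2 libraries a group the spread rests on the shared fit, and in leave-one-out fits the lone library is assumed to vary like the others. Low genes were limited by depth. The counts below are given without the shares of all genes under the same settings, so they show only which calls held. At the DC2.4 label the 22 lower genes became 13 with a 1.2-fold minimum and 18 to 20 when 1 library was left out. The 3 higher genes became 1 with the minimum, 5 with limma-voom, 5 with only the libraries compared, 5 with DESeq2 on those, and 1 to 2 when 1 library was left out. At the 4T1 label the 6 higher and 5 lower genes became 2 and 2 with the minimum, and 4 to 9 and 4 to 5 when 1 library was left out. For vesicles the 4 lower genes became 2 with the minimum and 3 to 4 when 1 library was left out. The 2 higher genes became 1 without a filter, 1 with limma-voom, 1 with DESeq2, and 0 with the minimum, with only the libraries compared and with DESeq2 on those, where Lamb2 and Ltbp2 had no adjusted p; they were 0 to 2 when 1 library was left out. For the difference of mRNA responses the 6 lower genes became 2 with the minimum and 3 to 6 when 1 library was left out, 3 of them without Mock labelled DC2.4 preparation 2. For vesicles minus mRNA the 7 higher genes became 3 with the minimum and 5 to 6 when 1 library was left out. The median over the genes tested at the 4T1 label turned from 0.10 to -0.091 when only the 10 genes of 5 CPM or more were taken. RLE and upper-quartile factors moved the median of all genes by at most 0.02. The causes were not tested.

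The preparation numbers were not taken to pair the libraries, since same-numbered deviations correlated at -0.08 to 0.59 over 15 pairs of groups. With the replicate block, 5 genes were higher at the DC2.4 label, with Lama3 (0.39, adjusted p = 0.0304) and Timp1 (0.21, adjusted p = 0.0242) gained, and Nid1, under 1 CPM, was gained among the lower ones (adjusted p = 0.0397). In the vesicle groups 1 gene was higher, since Ltbp2 was lost (adjusted p = 0.075). At the 4T1 label Lama5 was gained among the higher genes (adjusted p = 0.0458), and no other call changed in the 3 comparisons of uniSTING with its control.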
